A study of Cucumis melo with 8 samples.

Results

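The step from young to expanding fruit was followed in the mesocarp, the edible flesh, of the Hami melon cultivar 'Flavor No. 4' (Cucumis melo) by comparing microRNA (miRNA) levels at 20 days after flowering (20DAF) with those at 10 days after flowering (10DAF). The comparison used 4 of the 8 small RNA libraries of the study, 1 for each stage in each of 2 batches, and all 71 distinct mature sequences that were measured. Flowers were pollinated by hand, and no treatment or genotype differed between the groups. Libraries numbered 1 and 2 in the labels, which do not name the batches, were read as the study's first batch (batch 1) and its second (batch 2). The study describes the first as pools of several fruits sequenced single-end and the second, collected in the following year, as single fruits sequenced on another instrument, so year, pooling and sequencing cannot be told apart between batches. Both stages of a batch shared these conditions, and the change was therefore read within each batch as well as over both. In flesh taken as bulk tissue, fewer cells of a type and less RNA per cell cannot be told apart.

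Plant miRNAs are short RNAs cut from hairpin precursors by a Dicer-like enzyme and loaded into an Argonaute protein. They pair along most of their length with messenger RNAs, which are then cut or less translated. Many ancient families act on transcription factors that set organ growth, boundaries and phase change, others act on the response to auxin, and a further group responds to the supply of phosphate, sulfate or copper. The roles given here come mainly from Arabidopsis and were not measured in these libraries.

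The 71 sequences carried 116 miRNA names of 30 families, with 27 sequences carrying several names, which are joined here by a slash. The sequences that differed in the same direction in both batches are shown first, because the results turn on them and because several differ by a single base from a relative that moved otherwise. Each is written 5′ to 3′ as deposited, with T for U, and capitals mark the seed, bases 2 to 8.

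miR156b: tTGACAGAagatagagagcac
miR164c/d: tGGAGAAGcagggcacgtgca
miR166a/b/c/d/f/h: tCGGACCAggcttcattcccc
miR172b/c: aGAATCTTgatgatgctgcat
miR2111a/b: tAATCTGCatcctgaggttta
miR159b: aTTGGATTgaagggagctcct
miR168: tCGCTTGGtgcaggtcggga
miR394a/b: tTGGCATTctgtccacctcc
miR396e: tTCCACGGctttcttgaactg

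Their close relatives, against which they are compared below, share the same seed except in the miR396 pair.

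miR159a: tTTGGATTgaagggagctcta
miR164a: tGGAGAAGcagggcacgtgct
miR172e: aGAATCTTgatgatgctgcag
miR396b: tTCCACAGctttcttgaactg

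Positions are counted from 1 at the 5′ end and the relative's base is given first. The difference between miR164a and miR164c/d was T21A, between miR172e and miR172b/c G21T, and between miR396b and miR396e A7G, the only one of these inside the seed. Over all 71 sequences there were 25 pairs of equal length that were 1 base apart and 5 pairs in which one sequence contained the other, so reads of such pairs could have been divided between them by the counting.

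The values are reads per 1000000 of the reads that the authors counted, which they call TPM and which are not divided by length. Low values were whole multiples of 1 read, which gave totals of 314786 reads at 10DAF and 360147 at 20DAF in batch 1, and 604437 and 985263 in batch 2. A floor of 3 reads therefore stood at 9.53, 8.33, 4.96 and 3.04 TPM. Of the 71 sequences, 35 had more than 3 reads in all 4 libraries, 10 had at most 3 in every one, and 2 had none. Summed once each, the 71 sequences held 586926 and 571433 TPM at 10 and 20DAF of batch 1, and 443700 and 412477 in batch 2. Summed over all names, which counts a shared sequence once per name, the values came to 79.6% and 80.5% of 1000000 in batch 1. In batch 2 they came to 47.3% and 45.7%. The sequences thus took unlike parts of the totals of the batches, and levels were not tested between batches. The table holds no defining marker of mesocarp, and the tissue label was not checked.

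The flesh profile was dominated by very few sequences at both stages. miR396b, miR159a, miR396a/c/d, miR319a/b and miR319c/d held 96.4% of the summed TPM at 10DAF and 97.3% at 20DAF of batch 1, and 97.1% and 97.8% of batch 2. Below them, miR164c/d, miR156b and miR172b/c rose and miR159b fell from 10 to 20DAF at an unadjusted threshold, and 9 sequences differed in the same direction in both batches. No family as a whole passed the test.

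In the fit over both batches (limma on log2(TPM + 5), unadjusted p under 0.05 and a fold over 1.5), 3 sequences rose (4.23% of those tested) and 2 fell (2.82%). None of the 71 passed at a Benjamini-Hochberg adjusted p of 0.05, with 5 at an unadjusted p under 0.05 and the smallest adjusted p at 0.681. Leaving out 1 library moved the count of 5: it was 2 without 20DAF of batch 1 or 30DAF of either batch, 3 without 40DAF of either batch, and 1 without 20DAF of batch 2. With 2 libraries against 2, an exact permutation test of a single sequence cannot go below p = 0.333, so the fit rests on the spread shared over all stages. Where stages are said below not to overlap, this describes the values and is no test. It sets levels of both batches side by side, and the share of such sequences among the 71 was not counted.

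Within a batch, a sequence was called when its change on log2(TPM + 5) was over 1.5-fold and the exact 95% interval of its ratio of reads left out 1. That interval covers counting error only and compares 2 libraries, not the stages. In batch 1, 11 sequences were higher at 20DAF (15.5%) and 5 lower (7.04%), and in batch 2 11 were higher (15.5%) and 15 lower (21.1%). Called in both batches were 5 higher (7.04%), 4 lower (5.63%) and 2 in opposite directions (2.82%), while 5 were called only in batch 1, 15 only in batch 2 and 40 in neither. The median change was 0 in both batches. Among the 36 sequences with at least 10 reads in 1 library of each batch, 24 changed in the same direction in both, 14 upward and 10 downward. The changes of the batches had a Pearson's r of 0.20 and a Spearman's rho of 0.41 over these 36 sequences, which share libraries and are no replicates. Without miR172e, left out after its values were seen, r was 0.45 over 35.

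**Figure D1:**
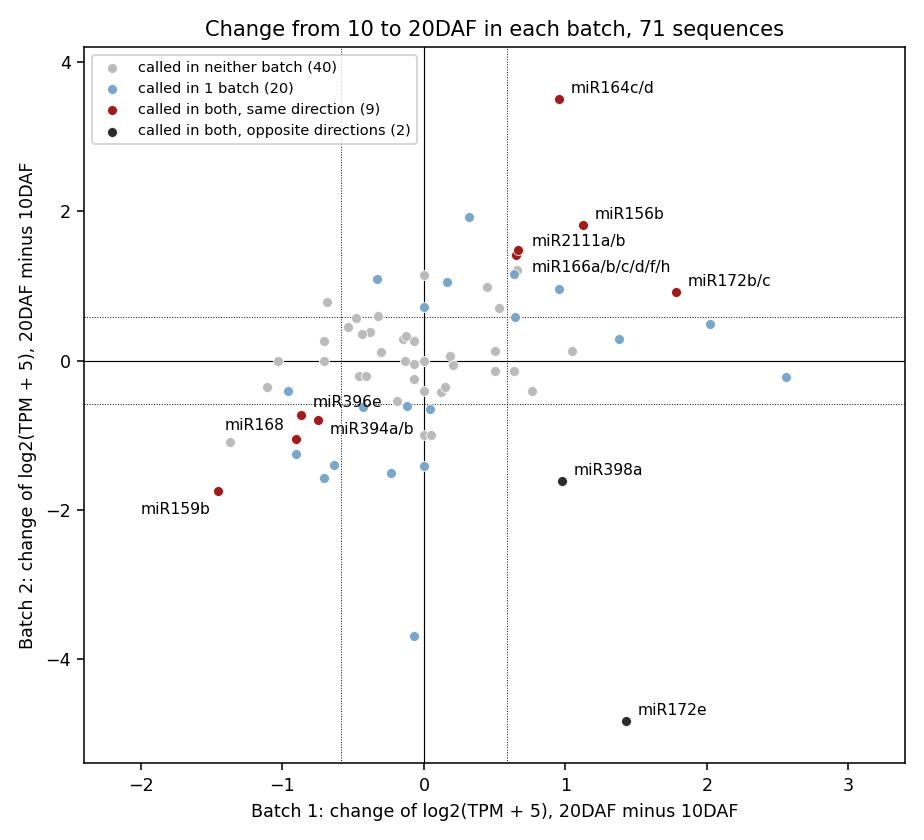
Change of log2(TPM + 5) from 10 to 20DAF in batch 1 (x axis) against batch 2 (y axis), 1 point per sequence. Dotted lines mark a 1.5-fold change. The 9 sequences called in the same direction in both batches are named in the upper right and lower left, and miR172e and miR398a lie in the lower right, higher at 20DAF in batch 1 and lower in batch 2.

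Other scalings were tried because the total is taken up by so few sequences. With miR159 and miR396 left out of the total (scaling on other families), the median change of the 36 sequences moved by -0.05 in batch 1 and -0.61 in batch 2 on the log2 scale, with median-ratio scaling it moved by 0.23 and -0.20, and with scaling to the clean reads of each library by 0.04 and 0.44. Scaled to clean reads, 7 sequences were called higher in both batches and 1 lower. Of the 9 sequences called in the same direction, 5 kept both calls under all 3 scalings, namely miR156b, miR164c/d, miR166a/b/c/d/f/h, miR2111a/b and miR159b. At a fold over 2, miR156b alone was called higher in both batches and miR159b alone lower.

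The phase change group holds miR156, which in Arabidopsis holds back SPL factors in the juvenile phase, and miR172, which acts on AP2-like factors. Of its 10 sequences, 3 were called higher and none lower in batch 1, and 3 higher and 1 lower in batch 2, against 15.5% higher in each batch and 7.04% and 21.1% lower over all sequences. miR156b stood at 95.3 TPM at 10DAF and 214 at 20DAF in batch 1, and at 46.3 and 177 in batch 2. Both 20DAF libraries lay above both 10DAF libraries. The change was 1.47 on the log2 scale (SE 0.60, limma, adjusted p = 0.681). The other miR156 sequences were low, and miR156j was the next in level, at 79.4 and 117 TPM in batch 1 and 24.8 and 43.6 in batch 2, with no call in either.

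miR172b/c was at 108 TPM at 10DAF and 383 at 20DAF in batch 1, and at 137 and 265 in batch 2, so that the stages did not overlap. Its change was 1.35 (SE 0.56, limma, adjusted p = 0.681), and with the batch as a block (SE 0.58) it no longer passed the unadjusted threshold. Its call in batch 2 was also lost when scaled on other families, where the change was 0.28. miR172e, which differs from it by the last base, went from 85.8 to 239 TPM in batch 1 and from 543 to 14.2 in batch 2. It was higher at 20DAF in batch 1 and lower in batch 2, with changes of 1.43 and -4.83. For miR172d batch 2 held 1 read at 10DAF and 20 at 20DAF, a ratio of 12.3 in TPM with a 95% counting interval of 1.96 to 509.

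Boundary and polarity factors are the targets of miR164, which acts on NAC factors of the CUP-SHAPED COTYLEDON kind, and miR166, which acts on class III HD-ZIP factors. Of the 7 sequences of this group, 2 were higher in both batches, against 7.04% over all sequences, and 1 was lower in batch 2, against 21.1%. miR164c/d had the largest rise of the 5 sequences past the limma threshold. It stood at 581 TPM at 10DAF and 1133 at 20DAF in batch 1, and at 87.7 and 1046 in batch 2. The level at 20DAF was close in the batches while that at 10DAF was not. Its change was 2.23 (SE 0.83, limma, adjusted p = 0.681). miR164a, 1 base apart, was at 1090 and 1002 TPM in batch 1 and at 771 and 504 in batch 2, where it was called lower except when scaled to clean reads.

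The names MIR164c and MIR164d mark 2 precursors that hold this mature sequence, so its reads cannot be assigned to either. Their hairpins, from the study's list of precursors, are shown because both contain the sequence that rose, and are written with U and with the mature part in capitals.

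MIR164c: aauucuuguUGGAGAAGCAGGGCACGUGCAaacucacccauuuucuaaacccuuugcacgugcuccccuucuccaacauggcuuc
MIR164d: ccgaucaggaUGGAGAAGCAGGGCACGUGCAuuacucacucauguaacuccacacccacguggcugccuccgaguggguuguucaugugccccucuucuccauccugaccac

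The first is 85 nt long with the mature part at bases 10 to 30, and the second is 112 nt long with it at bases 11 to 31. miR166a/b/c/d/f/h, given by 6 names, was at 124 TPM at 10DAF and 197 at 20DAF in batch 1, and at 31.4 and 92.4 in batch 2. It was called higher within each batch, but the stages overlapped over the batches and its change of 1.03 (SE 0.82, limma, adjusted p = 1) did not pass.

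**Figure D2:**
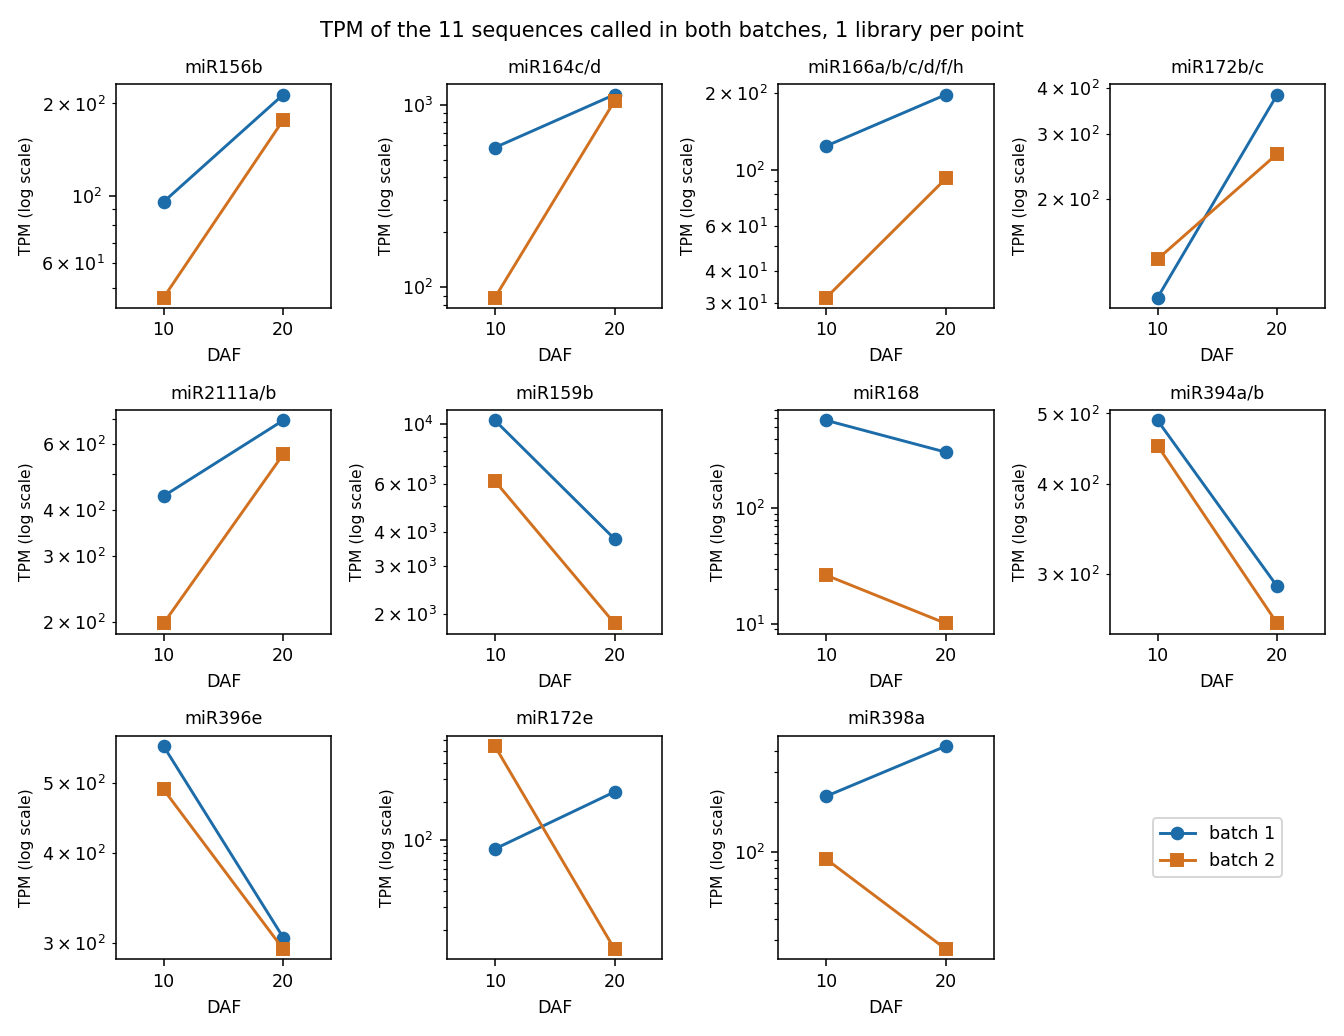
TPM on a log axis, with a scale of its own in each panel, at 10 and 20DAF for the 11 sequences called in both batches, 1 library per point and lines joining the libraries of a batch. miR164c/d ends near 1133 and 1046 TPM from 581 and 87.7, and the lines of miR172e and miR398a cross or part because the batches moved in opposite directions.

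MYB and TCP factors are the targets of miR159, which acts on GAMYB-like factors, and miR319, which acts on TCP factors of leaf and petal growth. miR159b stood at 10337 TPM at 10DAF and 3773 at 20DAF in batch 1, and at 6173 and 1840 in batch 2. Both 20DAF libraries were below both 10DAF libraries. It fell by 1.60 on the log2 scale (SE 0.59, limma, adjusted p = 0.681). Its far more abundant relative miR159a was at 150248 and 119504 TPM in batch 1 and at 71045 and 152008 in batch 2, called higher in batch 2 except when scaled on other families. miR319a/b was at 18006 and 20147 TPM in batch 1 and 12074 and 25038 in batch 2, where it was likewise called higher except when scaled on other families, and miR319c/d at 10407 and 8422, then 6029 and 6543.

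Growth-regulating factors (GRF), which drive cell proliferation in Arabidopsis leaves, are the targets of miR396. The most abundant sequence of the flesh, miR396b, was at 300055 TPM at 10DAF and 308685 at 20DAF in batch 1, and at 337218 and 215164 in batch 2. Its change was 0.04 in batch 1 and -0.65 in batch 2, where its call was lost when scaled to clean reads. miR396a/c/d was at 87107 and 99060 TPM in batch 1 but at 4439 and 4644 in batch 2, with no call in either. The rare miR396e was lower at 20DAF in both, at 562 and 305 TPM and then 490 and 294, but its call in batch 2 was lost when scaled to clean reads. Its change over both batches was -0.80 (SE 0.44, limma, adjusted p = 1). For miR396e too, both 20DAF libraries lay below both 10DAF libraries.

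Ratios of 2 sequences within a library do not depend on how the libraries were scaled, and they were compared for relatives of equal length. There were 14.5 reads of miR159a for each read of miR159b at 10DAF and 31.7 at 20DAF in batch 1, and 11.5 and 82.6 in batch 2, with intervals that did not overlap in either batch. For miR164c/d over miR164a the ratio went from 0.534 to 1.13 in batch 1 and from 0.114 to 2.07 in batch 2, a 2.12-fold and an 18.2-fold increase. Thus miR164a was the more abundant of the pair at 10DAF in both batches and the less abundant at 20DAF in batch 2, while the interval at 20DAF in batch 1, 0.979 to 1.31, held 1. The ratio of miR172b/c to miR172e went from 1.26 to 1.60 in batch 1, with overlapping intervals, and from 0.253 to 18.6 in batch 2. For miR396b over miR396e it went from 534 to 1011 in batch 1, and in batch 2 from 689 to 731 with overlapping intervals. Among the abundant sequences, the ratio of miR319a/b to miR319c/d went from 1.73 to 2.39 in batch 1 and from 2.003 to 3.83 in batch 2, and that of miR396b to miR396a/c/d from 3.44 to 3.12 and from 76.0 to 46.3. Neither pair had overlapping intervals in either batch.

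**Figure D3:**
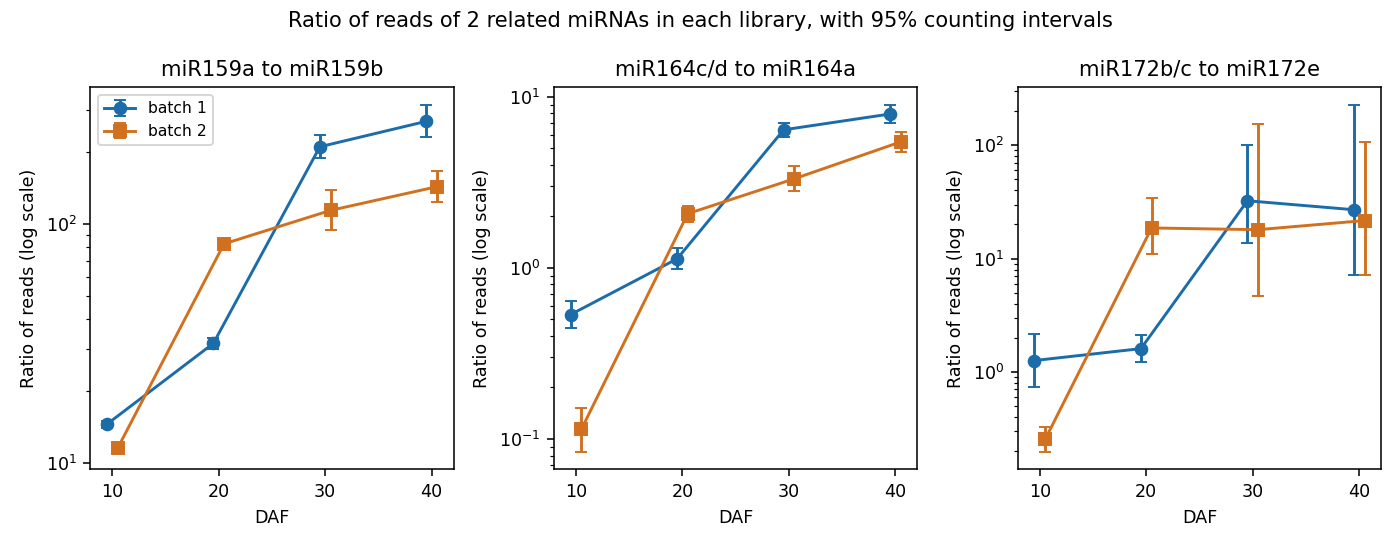
Ratio of reads of 2 related sequences (log axis) in each library at 10, 20, 30 and 40DAF, with 95% counting intervals and lines joining the libraries of a batch. From 10 to 20DAF the ratio of miR159a to miR159b went from 14.5 to 31.7 and from 11.5 to 82.6, and that of miR164c/d to miR164a from 0.534 to 1.13 and from 0.114 to 2.07, while the ratio of miR172b/c to miR172e moved beyond its intervals in batch 2 only.

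The silencing machinery is itself a target: miR168 acts on ARGONAUTE1 and miR162 on DICER-LIKE1. miR168 was at 575 TPM at 10DAF and 305 at 20DAF in batch 1, and at 26.5 and 10.2 in batch 2, where 16 and 10 reads stood behind the values. It was called lower in both, although the batches were further apart than the stages and its change of -0.98 had an SE of 1.78 (limma, adjusted p = 1) and was 1.12 without 10DAF of batch 1 and 1.20 without 20DAF of batch 2. The call in batch 2 was lost when scaled to clean reads. miR162 was at 1102 and 1724 TPM in batch 1 and at 1398 and 2090 in batch 2. Its changes of 0.64 and 0.58 lay just above and just below the 1.5-fold limit. For miR162 too, both 20DAF libraries lay above both 10DAF libraries.

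Of the 8 sequences on auxin signalling, where miR393 acts on the TIR1 receptors, miR160 and miR167 on auxin response factors and miR390 on the TAS3 precursor, none was called higher in either batch, against 15.5% over all sequences in each. In batch 1, 1 was lower (7.04% over all sequences), miR160a/b/c at 85.8 and 41.7 TPM, a call lost under median-ratio scaling. In batch 2, 4 were lower (21.1% over all sequences), namely miR393a/b/c, miR167c, miR167e and miR390a/b/c/d. miR393a/b/c, the most abundant of them, was at 889 and 658 TPM in batch 1 and at 369 and 238 in batch 2. Its changes were -0.43 and -0.62 within the batches, and -0.53 over both (SE 0.69, limma, adjusted p = 1). The last turned to 0.10 without 10DAF of batch 1 and 0.20 without 20DAF of batch 2, in a fit with no batch term. The call of miR393a/b/c in batch 2 was lost when scaled to clean reads. miR167e, with 5 reads at 10DAF and none at 20DAF in batch 2, had a ratio of reads of 0 with a counting interval up to 0.669. The median change of the group was -0.41 in batch 1 and -0.52 in batch 2, against 0 over all sequences in both.

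Among the 14 sequences directed at NF-YA factors (miR169) and GRAS factors (miR171), none was called higher, against 15.5% over all sequences in each batch. None was lower in batch 1, against 7.04%, and 3 were lower in batch 2, all miR169, a share near the 21.1% over all sequences. Of the 14, 4 had at most 3 reads in every library compared. miR169e/n passed the limma threshold with a change of -1.14 (SE 0.34, limma, adjusted p = 0.681), but with 1 and 0 reads in batch 1 and 6 and 0 in batch 2, and none later. The counting interval of its ratio in batch 2 reached 0.521. miR169f/h had 36 reads at 10DAF and none at 20DAF in batch 2, with a counting interval of the ratio up to 0.0662, but 1 read at each stage in batch 1. The most abundant sequence of the group, miR169t, was at 235 and 255 TPM in batch 1 and at 108 and 79.2 in batch 2, with no call.

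Copper proteins are the targets of miR397 (laccases), miR398 (copper superoxide dismutases) and miR408 (plantacyanin-like proteins), which in Arabidopsis accumulate when copper is scarce. In batch 1, 3 of the 4 sequences were higher at 20DAF, against 15.5% over all sequences, and in batch 2 none was higher and 1 was lower, against 15.5% and 21.1%. miR397 went from 47.7 to 208 TPM in batch 1, and had 0 and 2 reads in batch 2, under the floor. miR408 was at 85.8 and 230 TPM in batch 1, and in batch 2 at 13.2 and 17.3 without a call. miR398a was at 216 and 430 TPM in batch 1 but at 91 and 26.4 in batch 2, with changes of 0.98 and -1.61. Whether the batches differ was not tested, as each had 1 library per stage.

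Nutrient supply is represented by miR399, which acts on the phosphate regulator PHO2, miR395, which acts on sulfate assimilation, and miR2111, which acts on F-box transcripts and in Lotus travels from shoot to root. miR2111a/b was at 435 TPM at 10DAF and 694 at 20DAF in batch 1, and at 199 and 563 in batch 2. Both 20DAF libraries lay above both 10DAF libraries, yet its change of 1.07 (SE 0.59, limma, adjusted p = 1) did not pass. miR399g was called higher in batch 1 and not in batch 2, with 3 and 29 reads in batch 1, a ratio of 8.45 in TPM with an interval of 2.62 to 43.3. Its seed, GGGCTTC, differs from the GCCAAAG that the other miR399 sequences share. Its 3′ part is instead close to the reverse complement of their 5′ end, so the PHO2 target is not taken to hold for it. miR395a/d/e/f and miR395b/c were not called in either batch, and their levels differed between batches by more than between stages.

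Of the remaining 9 sequences, miR394a/b, which in Arabidopsis acts on the F-box gene LEAF CURLING RESPONSIVENESS, was lower in both batches, at 489 and 289 TPM and then 452 and 257. Both 20DAF libraries lay below both 10DAF libraries, and its change was -0.78 (SE 0.64, limma, adjusted p = 1). It lost a call under median-ratio scaling and when scaled to clean reads. miR7129, a 24 nt sequence and the most abundant of these, was at 2109 and 1846 TPM in batch 1 and at 1295 and 891 in batch 2, with no call.

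Summed by family, 3 of 30 families were higher in both batches (miR156, miR166 and miR2111), 2 were lower in both (miR168 and miR394), and miR172 and miR398 were called in opposite directions. None passed the limma threshold, with none at an unadjusted p under 0.05 and the smallest limma adjusted p at 0.923. Without 10DAF of batch 1, 3 families passed at the unadjusted threshold, miR156, miR164 and miR2111. A family sum hid members that moved apart: miR164 changed by 0.34 and 0.85 and miR159 by -0.38 and 0.99, with miR164c/d summed beside miR164a and miR159b beside miR159a. Of 17 seeds shared by several sequences, 4 had both a higher and a lower call when the calls of both batches were pooled. In the seed of miR398a and miR398b both calls were of miR398a, higher in batch 1 and lower in batch 2, and miR398b had no call.

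**Figure D4:**
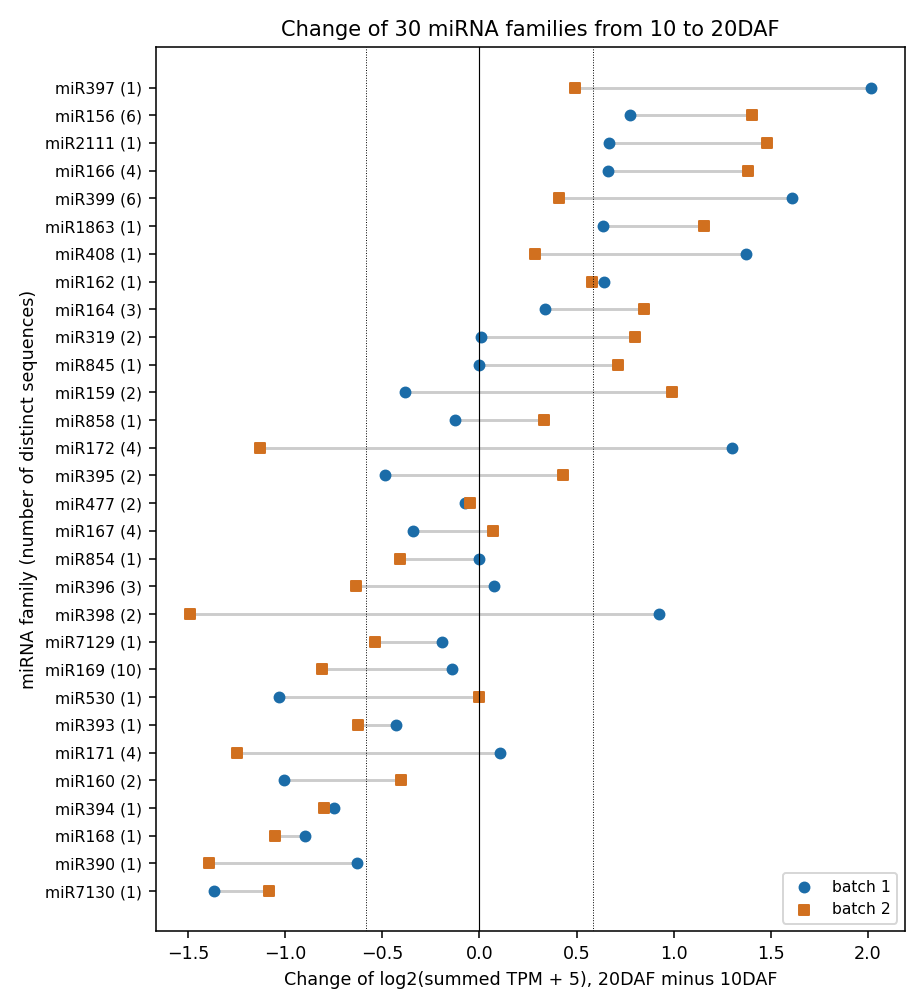
Change of log2(summed TPM + 5) from 10 to 20DAF for 30 families, with the number of distinct sequences in parentheses, circles for batch 1 and squares for the second. Dotted lines mark a 1.5-fold change. miR156, miR166, miR2111 and miR1863 lie to the right of them in both batches and miR168, miR394, miR390 and miR7130 to the left, of which miR1863, miR390 and miR7130 were not called in both, while miR172 and miR398 have a point on either side.

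Whether the early step differed from the late step was tested by the change from 10 to 20DAF less the change from 30 to 40DAF, which share no library. At the unadjusted limma threshold the early change was the higher in 1 sequence (1.41%) and the lower in 3 (4.23%), and none passed after adjustment, with 4 at an unadjusted p under 0.05 and the smallest adjusted p at 0.614. The count of 4 was 2 without 20DAF or without 30DAF of batch 2. miR166a/b/c/d/f/h changed by 0.65 and 1.42 in the early step and by -2.92 and -1.64 in the late step, from 586 to 72.9 TPM and from 542 to 170, a difference of 3.32 (SE 1.16, limma, adjusted p = 0.614). miR156g/h and miR156e had few reads at 10 and 20DAF and higher values at 40DAF: miR156g/h was at 6.35 and 11.1 TPM in the early step of batch 1 and went from 24.3 to 352 in the late step, and in batch 2 from 3.31 and 4.06 to 9.52 and 170. At 30DAF of batch 2, miR156g/h had 1 read and miR156e had 2, under the floor of 3 reads, which stood at 28.6 TPM there. The differences of miR156g/h and miR156e were -3.28 (SE 1.17) and -2.70 (SE 0.97), both with a limma adjusted p of 0.614. The fourth was miR169e/n, without a read at 30 and 40DAF. For miR164c/d, which was at 7475 and 9840 TPM at 30 and 40DAF in batch 1 and at 5843 and 10310 in batch 2, the early step was not shown to differ from the late one (1.62, SE 1.17, limma, adjusted p = 0.834).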

How the data were processed

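Small RNA from melon mesocarp was sequenced by the authors in 2 batches at 4 stages, giving 8 libraries. Reads were trimmed and filtered by length, reads of ribosomal and transfer RNA were removed, and the rest were aligned with Bowtie, for which the submitters' notes give no version, and matched to known plant miRNAs. The deposited values are RPM (reads per 1000000, which the authors call TPM): reads of a miRNA divided by a library total and scaled to that number. 1 line of the table had an extra empty field, which was dropped. Names with the same mature sequence had the same values and were kept as 1 of 71 sequences.

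The members and lists were chosen with earlier results of these data known. Stages were compared by limma 3.58.1 (R 4.3.3) with a mean-variance trend on log2(TPM + 5) over all 8 libraries with no batch term, and called at an unadjusted p under 0.05 and a fold over 1.5, or at a Benjamini-Hochberg adjusted p under 0.05. A sequence's reads were recovered from the value of 1 read in a library: in each library all of 37 to 48 low values were whole multiples within a tolerance of 0.1. These reads gave exact Clopper-Pearson intervals (95%), computed with scipy 1.17.1, which cover counting error only, as reads copied by PCR are not independent molecules. Because the recovered reads rest on few low values, no negative binomial model was run, and voom on these reads served as an alternative only. The test scripts were tested on simulated data with independent noise and no difference between batches, which does not show how the tests perform on these libraries.

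The replicate number was read as the batch. Deviations of batch 2 from the stage means correlated in all 6 pairs of stages (mean r 0.498, 0.352 to 0.664), so the numbers pair the libraries. The SEs in the text come from the fit that leaves this pairing out, except where the block is named. With the batch as a block the SE was smaller for some sequences (miR168, 1.36 against 1.78) and larger for others (miR159b, 0.64 against 0.59). The smallest limma adjusted p with the block was 0.850. The libraries of a stage came from different fruits. Sequences named in the text were those past the unadjusted limma threshold, those called in both batches, in the same or in opposite directions (up to 10 each), the 5 of highest mean TPM in the 4 libraries and the most abundant of each group by target. Other sequences were named after their values were seen. Pseudocounts, scalings, filters, the batch as a block and leaving out each library were tried as alternatives.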

Additional observations from a re-analysis of the deposited data

Results flagged for a closer look

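Under the same step from 10 to 20DAF, miR172e and miR398a were called in opposite directions in the 2 batches. The change of log2(TPM + 5) in batch 2 less that in batch 1 was -6.259 for miR172e and -2.591 for miR398a. Each batch had 1 library per stage, so this difference was not tested. The calls of both were kept under the 3 other scalings, and at a fold over 2 only miR172e kept its calls.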

How the results depend on the processing

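The 5 sequences called at the unadjusted threshold became 3 when scaled on other families, 3 when scaled to clean reads, 3 with voom on the recovered reads, and 2 with only the 10 and 20DAF libraries; leaving out each library gave 1 to 7. With the batch as a replicate block the count was 4, all among the 5, and miR172b/c alone was lost; the block changed no other call of these 5. No sequence was called at an adjusted p with all 8 libraries. Without 10DAF of batch 1 or of batch 2, that stage was left with 1 library that was assumed to vary like the others. Calls of these fits at an adjusted p are not counted here. The changes were 3.56 for miR164c/d and -1.58 for miR169e/n without 10DAF of batch 1. They were -0.71 for both miR160d and miR169e/n without 10DAF of batch 2. miR160d had 1 read at 10DAF of batch 1 and none in any other library, and miR169e/n also had 1 read there. Families called went from 0 to 2 under median-ratio scaling (miR156 and miR2111), and ranged from 0 to 3 when a library was left out. The 4 sequences that set the early step apart from the late step became 1 when scaled to clean reads and ranged from 2 to 6 when a library was left out, with 0 to 2 at an adjusted p. Within batches, a fold over 2 left 1 sequence higher in both, 1 lower in both and 1 opposite, and scaling to clean reads gave 7 higher and 1 lower in both. The cause of these shifts was not tested. For the 22 named sequences, 350 alternative values kept their direction and their side of the threshold, 35 lost the threshold, 3 gained it and 19 turned direction, none of these in the 5 called sequences. Leaving out each library turned 10 of them, over ranges of -0.16 to 0.92 for miR159a, -0.86 to 0.13 for miR164a, -3.16 to 1.20 for miR168, -0.97 to 0.66 for miR169t, -3.54 to 0.13 for miR172e, -0.49 to 0.30 for miR319c/d, -1.25 to 0.20 for miR393a/b/c, -2.08 to 2.33 for miR396a/c/d, -2.21 to 1.58 for miR398a and -0.89 to 0.16 for miR7129. The limma fit had no batch term. Without a 10 or 20DAF library it set 1 batch at a stage against both at the other. Differences between batches thus enter these ranges. Within batches, miR396a/c/d changed by 0.19 and 0.07, and miR164a, miR168, miR393a/b/c and miR7129 were lower at 20DAF in both. The rest of the 10 changed in opposite directions in the batches. miR169t (0.079) and miR319c/d (0.15) also turned when scaled to clean reads, and miR396a/c/d (-0.23) when scaled on other families. The planned negative binomial models on recovered reads, with and without the replicate block, were not run. Depth limits sequences near the floor of 3 reads, 9.53 to 3.04 TPM in the 10 and 20DAF libraries. In batch 2 this floor was higher at the later stages, at 28.6 TPM at 30DAF and 22.2 at 40DAF. These libraries entered the shared spread and the comparison of the early with the late step.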
